A study of Canis lupus familiaris with 20 samples.

Results

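Genes of the cell cycle and of DNA replication were followed in muscle of normal and dystrophic dogs on canine 2-colour Agilent arrays. Members were taken by the gene name printed in the array files. A name had to begin with MCM, CDK, CCNA, CCNB, CCND, CCNE, SMC, NCAP, CENP, POLA, POLD, POLE, RFC, E2F or AURK, or with CDC or KIF and a number. PCNA, MKI67, TOP2A, RRM1, RRM2, TYMS, BUB1, BUB1B, PLK1, BIRC5, RNASEH2C and HUS1 were added by exact name. This gave 127 genes on 139 probes, out of 9220 named genes on arrays of 42034 probes. Of these, 68 genes on 74 probes were bright enough to be tested, out of 5556 named genes and 16008 probes in all. The rest did not pass the filter on dim probes.

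The 10 dogs were all 2 years old, and the labels place 4 in a normal group, 4 in a DMD affected group and 2 in a DMD escaper group. DMD, Duchenne muscular dystrophy, is the loss of the muscle protein dystrophin, and escapers are dogs that lack it but stay mildly affected. The labels give the tissue as muscle and name neither which muscle nor the mutation. Every dog was hybridised on 2 arrays of opposite dye against RNA of 1 normal individual, the reference on all 20 arrays. Values are log2 ratios of dog over reference, averaged over the 2 arrays of a dog, so the dog is the replicate. A negative value means less signal than in the reference RNA.

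A dividing cell licenses its replication origins in G1, when CDC6 loads the MCM helicase onto DNA. D and E cyclins with their kinases then drive it into S phase, where polymerases copy DNA behind the sliding clamp PCNA, which the RFC complex loads. Cohesin and condensin, built on SMC proteins, hold and compact the copied chromosomes, and Aurora and Polo kinases, centromere proteins and mitotic kinesins separate them. Muscle fibres have left the cell cycle, and their nuclei come from satellite cells, which divide when a dystrophic fibre is replaced. Macrophages and fibroblasts that enter damaged muscle can divide too. In bulk tissue, fewer cells of a type and less RNA per cell cannot be told apart.

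The member names cover more than dividing cells. A shorter list of 71 genes active in S phase and mitosis was set against the array, which names 41 of them, and 19 were tested. MKI67, TOP2A, TYMS, BUB1, BUB1B, CCNB1 and CDC20 have no probe under those names. Other members share only letters with cell cycle genes. CDC42 and its binding partners shape the actin skeleton, KIF1C, KIF3A and KIF5B carry cargo along microtubules, CDC37 is a chaperone partner and SMCP is a sperm protein.

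One member name conflicts with its probe. The array names 2 probes MCM2, the second subunit of the replicative helicase. Both are printed because the brighter one carries the MCM2 values of the test while the file describes it as cyclin L1, and the gene table places MCM2 on chromosome 20. In the second, which the file describes as MCM2, the capitals mark a stop codon that closes the reading frame started at its first base. Positions here and below are those of the array files, whose genome build is not given in the sources used here.
MCM2, minus strand of chr23:53692409-53692468, described as cyclin L1: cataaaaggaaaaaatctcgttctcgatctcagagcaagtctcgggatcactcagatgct
MCM2, plus strand of chr20:4706513-4706572, described as MCM2: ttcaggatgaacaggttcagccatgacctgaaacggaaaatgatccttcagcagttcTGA
The probe described as MCM2 was well above background on 1 of the 20 dog channels. The chromosome 23 probe is counted below under the name the array gives it, and is left out of statements on the helicase.

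Signal limited what could be measured. The scanner software set between 30.5% and 60.2% of all probes well above background in the channel of a dog. Each slide held 2 dogs of 1 group, and both escapers shared a slide, so slide and escaper group cannot be told apart. Among the dogs, affected 1 and escaper 2 stood apart. Affected 1 gave the highest or the lowest value for 54.4% of the tested members and 49.3% of all tested named genes, and escaper 2 did so for 51.5% and 50.4%. Both also had low muscle fibre markers (mean log2 ratio −1.54 and −1.70 over 8 genes, against 0.20 to 0.89 in the other 8 dogs).

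Many S phase and mitosis genes were not above background in these muscles. Between 9 and 13 of the 41 genes were well above background on both arrays of a normal dog. The count was 18, 10, 12 and 15 in affected dogs 1 to 4 and 12 and 22 in escapers 1 and 2. Affected 1, affected 4 and escaper 2 thus detected more of these genes than any normal dog, while affected 2, affected 3 and escaper 1 lay within the normal range. The same 3 dogs also detected the largest shares of all named genes, 59.2%, 55.7% and 57.0%, against 46.6% to 52.5% in normal dogs. Of the 48 probes of the S phase and mitosis list, 30 were not well above background on any of the 8 arrays of normal dogs. The reference RNA showed 9 of those 30 on at least 10 of the 20 arrays. Of the 48, 8 were above background on no dog array and 13 on exactly 1, which for 11 of them was the same array of affected 4, the brightest of the study. Over all 127 members, 15 were never above background in a dog and 36 on at most 1 array, while 45 were above it on every dog array.

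**Figure D1:**
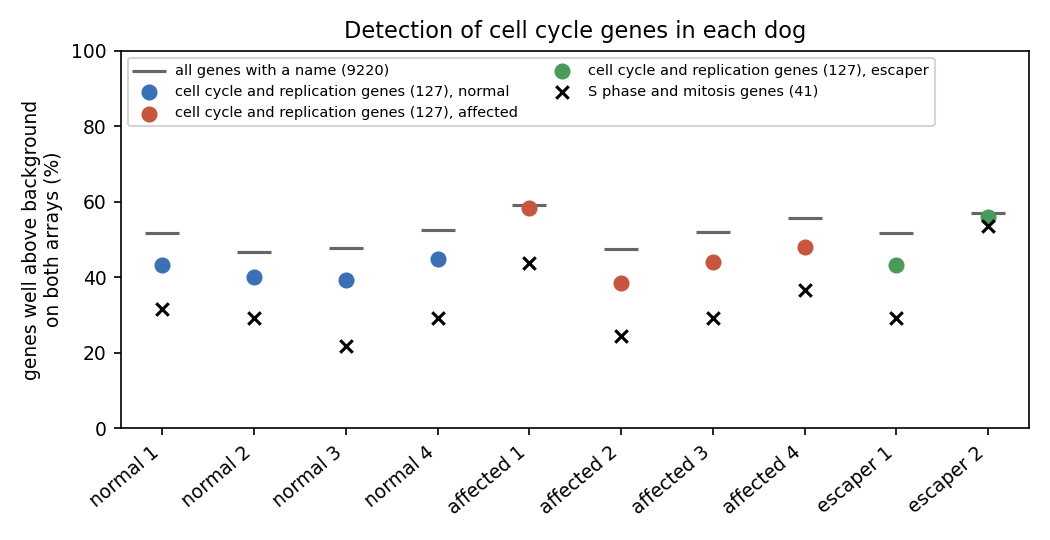
Percent of genes well above background on both arrays of each dog (y axis) for the 10 dogs (x axis). Dots stand for the 127 cell cycle and replication genes, crosses for the 41 S phase and mitosis genes and dashes for all 9220 named genes. Escaper 2 detected 22 of the 41 and affected 1 detected 18, against 9 to 13 in normal dogs.

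No member passed an adjusted p of 0.05 in any of the 3 comparisons, in limma with Benjamini-Hochberg adjustment over all 16008 probes. Over all tested named genes, 0.018% were called between affected and normal dogs, 0% between escaper and normal and 0% between escaper and affected. At an unadjusted p under 0.05, 7 members were higher and 2 lower in affected than in normal dogs, out of 68, where 6.05% and 6.82% of all named genes were. Those 7 are 10.3% of the members and those 2 are 2.94%. Between escaper and normal dogs, 5 members were higher and 5 lower, 7.35% each, where 10.1% and 8.96% of all named genes were. Between escaper and affected dogs, 1 was higher and 1 lower, 1.47% each, where 3.06% and 2.48% were. With counts this small, these shares were not read as a difference between members and all genes.

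The median of all tested members moved little. The median log2 difference of the 68 members was 0.10 between affected and normal dogs, against 0.05 for all 5556 named genes, and 46 of the 68 lay above 0. Between escaper and normal dogs it was 0.06 against 0.01, and 40 of 68 lay above 0. Between escaper and affected dogs it was −0.0096 against −0.03, and 33 of 68 lay above 0. For the 19 S phase and mitosis genes, the probe named MCM2 among them, the medians were 0.06, 0.23 and 0.09 in the same order. Above 0 lay 14, 13 and 11 of the 19. Their mean log2 ratio was −0.37 in escaper 1, within the normal range of −0.45 to −0.22, and 0.08 in escaper 2. Of the 68, 6 (MCM4, MCM6, CDC2, AURKA, KIF23 and NCAPG2) were above background on no normal array and passed the filter through dystrophic dogs alone, which favours higher values there. All of these but NCAPG2 are among the 19. CDKN3 likewise passed the filter through dystrophic dogs alone. Centring each array on its median in place of loess moved the escaper medians of all named genes to −0.16 against normal and −0.21 against affected dogs, and those of the members to −0.12 and −0.23.

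**Figure D2:**
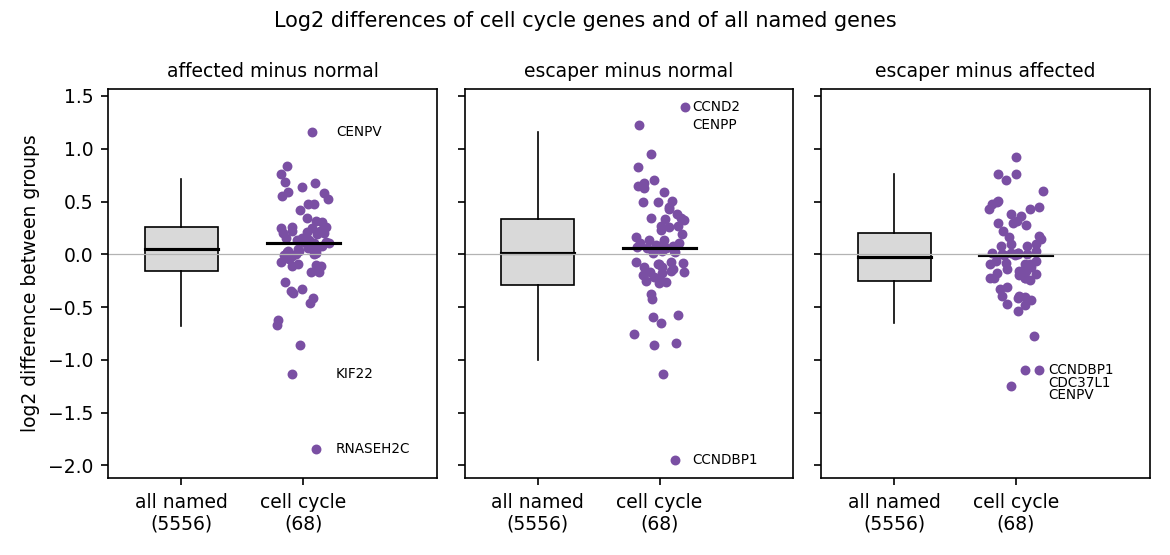
Log2 difference between groups (y axis) in the 3 comparisons. Grey boxes give the interquartile range of all 5556 named genes with whiskers that leave out 5% of the genes at each end, purple points are the 68 tested members and black lines are medians. The member medians of 0.10, 0.06 and −0.0096 lie near those of all genes, and RNASEH2C at −1.84 is the lowest member in affected dogs.

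Members whose dogs do not overlap were counted beside all named genes in the same way. In affected dogs 6 members lay wholly above and 2 wholly below the normal dogs, 8.82% and 2.94% of those tested, where 6.19% and 7% of all named genes did. The 6 were SMC6, CENPV, KIF2A, MCM7, POLD2 and CENPP, and the 2 were RNASEH2C and CCNDBP1. In escapers 8 lay above and 8 below the normal dogs, 11.8% each, where 15% and 15.7% of all named genes did. Those above were SMC6, CCND2, CENPP, SMC4, CDKN3, MCM5, CDK5RAP3 and CDC14A. Those below were RNASEH2C, CCNDBP1, HUS1, POLE4, KIF22, NCAPD3, NCAPH2 and CDKN2D. Between escapers and affected dogs KIF3C lay above and HUS1, CENPV, CDC16 and NCAPD3 below, 1.47% and 5.88%, where 3.17% and 4.7% of all named genes did. For the other 46 tested members the dogs of each pair of groups overlapped, with differences from −0.67 (CDK2AP1) to 0.64 (CCNE2) in affected and from −0.86 (KIF1C) to 0.63 (CDC2) in escaper dogs against normal. These comparisons share dogs, so a gene named in several of them is not independent evidence in each.

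Between affected and normal dogs the largest difference of a member was that of RNASEH2C. It encodes a structural subunit of ribonuclease H2, the enzyme that removes ribonucleotides and RNA:DNA hybrids left in the genome. RNASEH2C and HUS1 belong to no name family of the rule and were added by exact name. Members were chosen with earlier results of these data known, so the rank of these genes among the members is no independent result. RNASEH2C was lower in both dystrophic groups on each of its 2 probes. The probe described as ribonuclease H2 subunit C is printed because it is the one whose description names the gene. Its 60 bases match 145 bases of the genome in the file, so they are split there, and none of its 3 forward frames holds a stop codon.
RNASEH2C, plus strand of chr18:54524344-54524488: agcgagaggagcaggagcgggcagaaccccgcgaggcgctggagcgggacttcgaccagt
On this probe the log2 ratios were 1.12, 0.41, 0.80 and 1.01 in normal dogs 1 to 4. They were −0.58, −0.37, −0.12 and −0.17 in affected dogs 1 to 4, and 0.07 and 0.03 in escapers 1 and 2. All 4 normal dogs lay above the reference and above every dystrophic dog. The second, brighter probe lies at chr18:54524982-54525041 on the plus strand, is described only by an expressed sequence tag, and represents the gene in all counts. It read 1.54, 0.96, 1.44 and 1.26 in normal, −1.12, −0.65, −0.33 and −0.08 in affected and −0.14 and 0.46 in escaper dogs. Again no dystrophic dog reached the lowest normal dog, and 5 of the 6 dystrophic dogs lay below the reference.

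Group means of the brighter RNASEH2C probe were 1.30 ± 0.26 (SD, n = 4) in normal, −0.54 ± 0.45 (SD, n = 4) in affected and 0.16 ± 0.43 (SD, n = 2) in escaper dogs. The difference between affected and normal dogs was −1.84 ± 0.24 (SE), a 3.58-fold lower ratio, with a limma adjusted p of 0.065. It narrowly missed the threshold, and under 9 of the 22 other settings it passed, with adjusted p from 0.012 to 0.28 over all of them and a difference from −2.29 to −1.49. The gene was called without affected 1, at a difference of −1.65 (adjusted p = 0.041), and not called when any 1 normal dog was left out. The other probe gave −1.14 ± 0.18 (adjusted p = 0.088). Escapers differed from normal dogs by −1.14 ± 0.30 (adjusted p = 0.19) and from affected dogs by 0.70 ± 0.30 (adjusted p = 0.8), so neither passed.

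HUS1 differed from RNASEH2C in which dogs stood apart. Its protein is part of the ring-shaped checkpoint clamp that loads at damaged DNA. The probe below is shown because the gene's only values rest on it, and its capitals mark a stop codon that ends the reading frame started at its first base.
HUS1, plus strand of chr16:3106555-3106614: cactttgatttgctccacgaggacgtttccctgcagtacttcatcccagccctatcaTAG
Log2 ratios were −0.34, −0.12, −0.42 and −0.16 in normal and 0.13, −0.23, −0.11 and −0.36 in affected dogs, and −0.61 and −1.22 in the 2 escapers. Normal and affected dogs overlapped, while both escapers lay below all 8. The escaper difference was −0.65 ± 0.21 against normal dogs (adjusted p = 0.2) and −0.77 ± 0.21 against affected dogs (adjusted p = 0.8). Without escaper 2 the differences were −0.35 and −0.46, and without escaper 1 they were −0.96 and −1.08, each resting on a single escaper. With median centring HUS1 was −1.12 against normal dogs. HUS1 and the brighter RNASEH2C probe were well above background on all 20 dog channels.

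**Figure D3:**
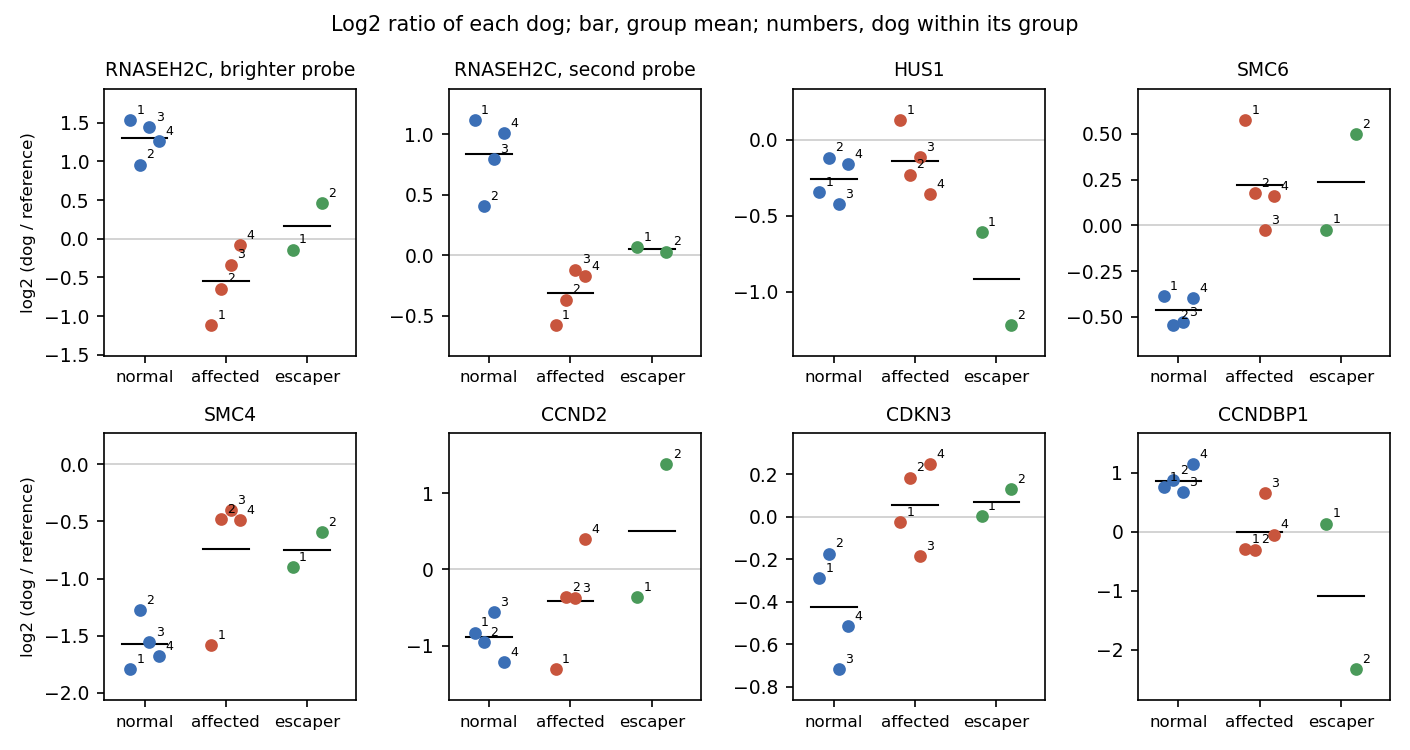
Log2 ratio of dog over reference (y axis, scaled for each panel) for 7 members by group (x axis), with both RNASEH2C probes. Each point is a dog, numbered within its group, and black bars are group means. RNASEH2C is higher in all 4 normal dogs than in any dystrophic dog, HUS1 is lowest in the 2 escapers, and the SMC4, CCND2 and CCNDBP1 panels show affected 1 or escaper 2 away from their groups.

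The helicase subunits MCM4, MCM5, MCM6 and MCM7 were high in affected 1 and escaper 2. MCM4 and MCM6 entered the test only because dystrophic dogs passed the filter, so their share in this pattern is in part fixed by that choice, while MCM5 and MCM7 were above background in every dog. The mean log2 ratio of the 4 genes was −0.62, −0.30, −0.48 and −0.59 in normal dogs. It was 0.35, −0.40, −0.54 and −0.42 in affected dogs, and −0.29 and 0.51 in escapers. Affected 1 and escaper 2 lay above the reference for all 4 genes, and every other dog lay below it for all 4. With median centring in place of loess the affected dogs spanned −0.73 to 0.42, the escapers −0.62 to 0.14 and the normal dogs −0.96 to −0.44. No test was made of this mean.

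Singly, MCM7 read −0.90, −0.38, −0.46 and −0.59 in normal, 0.49, −0.19, −0.23 and −0.19 in affected and −0.43 and 0.55 in escaper dogs. Affected dogs lay above normal dogs without overlap, by 0.55 ± 0.25 (adjusted p = 0.41), and by 0.38 without affected 1. The separation held under loess and 2 of the 4 other scalings. MCM5 read −0.95, −0.09, −0.26 and −0.83 in normal, 0.61, −0.56, −1.05 and −0.35 in affected and −0.005 and 0.84 in escaper dogs. Its escapers lay above the normal dogs by 0.95 ± 0.44 (adjusted p = 0.28), with escaper 1 at −0.0050 close to normal 2 at −0.09, and by 0.53 without escaper 2. That separation held under loess and 1 of the 4 other scalings. Both genes were well above background on all 20 dog channels.

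MCM4 and MCM6 were not well above background on any normal array, so their levels there are not resolved. MCM4 was measured on 4 of 8 affected and 2 of 4 escaper arrays, and MCM6 on 3 and 2. The fitted differences from normal dogs were 0.20 in affected and 0.50 in escaper dogs for MCM6 (adjusted p = 0.74 and 0.37), and 0.03 and 0.35 for MCM4 (adjusted p = 0.95 and 0.41). Without affected 1 the affected differences were 0.02 and −0.11, and without escaper 2 the escaper differences were 0.08 and 0.09. CDC6, MCM3 and MCM10, which act at the same step, were above background on 1 dog array each, and CDC45L, the partner of the helicase, also on 1.

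**Figure D4:**
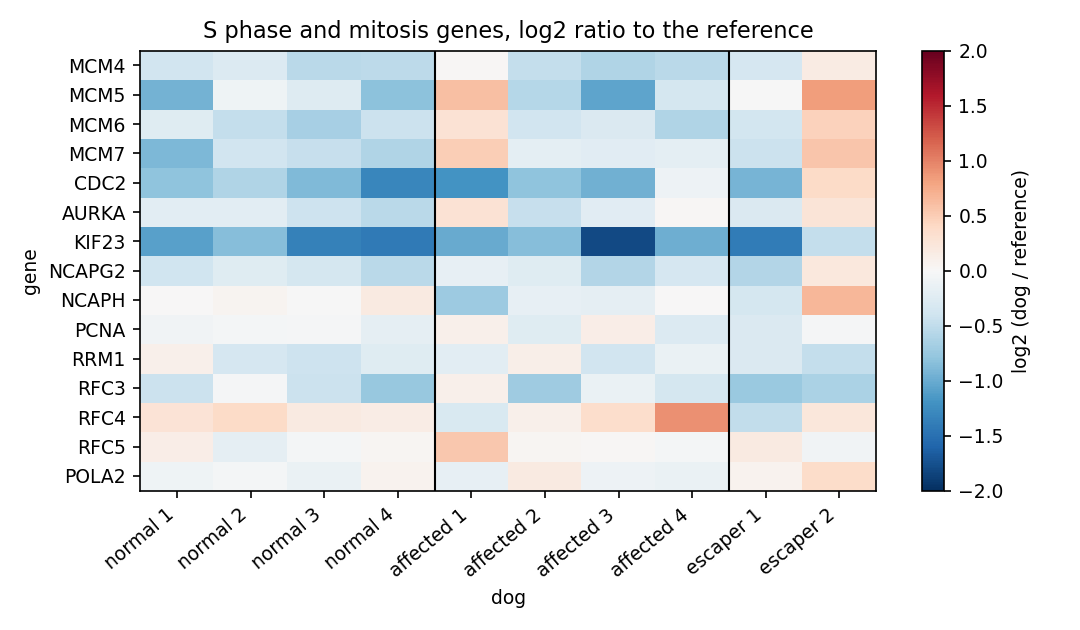
Log2 ratio of dog over reference (colour) for 15 tested genes of replication and mitosis (rows) in the 10 dogs (columns), with lines between groups. The rows are a selection. SMC4, KIF22, CCNE2, BIRC5 and the probe named MCM2, of the 19 tested S phase and mitosis genes, are not shown, and NCAPG2 is not on that list. Over the 19 genes the mean was −0.28 in affected 1 and −0.30, −0.28 and −0.18 in affected 2, 3 and 4. Escaper 2 is above the reference for MCM4 to MCM7, CDC2, AURKA, NCAPG2, NCAPH, RFC4 and POLA2, and affected 1 for MCM4 to MCM7, AURKA, PCNA, RFC3 and RFC5. MCM4, MCM6, CDC2, AURKA, KIF23 and NCAPG2 passed the filter only through dystrophic dogs, which favours higher values there.

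Of 9 tested genes for polymerase subunits, the clamp and its loader, 6 were higher and 3 lower in affected than in normal dogs, with a median difference of 0.02. In escapers 4 were higher and 5 lower than in normal dogs (median −0.08), and 2 higher and 7 lower than in affected dogs (median −0.16). PCNA, the sliding clamp, read −0.07, −0.04, −0.02 and −0.17 in normal, 0.10, −0.24, 0.13 and −0.27 in affected and −0.29 and −0.03 in escaper dogs. Its groups overlapped, and it was well above background on 11 of 20 dog channels, 4 of them in normal dogs. POLA2, a subunit of the polymerase that primes synthesis, differed by −0.01 ± 0.13 in affected dogs, and RRM1, the large subunit of the enzyme that makes deoxyribonucleotides, by 0.06 ± 0.16 (adjusted p = 0.97 and 0.88). RRM2, its S phase subunit, was above background on 17 reference channels and on 3 dog channels, 2 of them of escapers.

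Clamp loader subunits differed in direction. RFC1, the large subunit, read −0.52, −0.20, −0.15 and 0.12 in normal, 0.04, 0.20, 0.18 and 0.20 in affected and 0.10 and 0.28 in escaper dogs. Affected dogs were higher by 0.35 ± 0.15 and escapers by 0.38 ± 0.18 (adjusted p = 0.39 and 0.29), and normal 4 overlapped both groups. RFC4 differed by 0.02 (0.21 without affected 1) and −0.38 (−0.73 without escaper 2) in the same comparisons and RFC3 by 0.14 and −0.27, with overlapping dogs in each. POLD2, a subunit of the lagging strand polymerase, was higher in all 4 affected dogs, at 0.02, −0.16, −0.25 and −0.29 against −0.34, −0.41, −0.48 and −0.40 in normal dogs. That difference of 0.24 ± 0.12 had an adjusted p of 0.44, and the separation held under 2 of the 4 other scalings. POLE4, a small subunit of the leading strand polymerase, was low in both escapers, at −0.63 and −0.77, and in affected 1, at −0.92. The other 3 affected dogs, at −0.03 to 0.05, and the normal dogs, at −0.03 to 0.38, lay higher, and the escaper difference from normal dogs was −0.84 ± 0.27 (adjusted p = 0.2), or −1.38 with median centring.

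Among the cyclins, CCND2 varied most. D cyclins activate the kinases that open G1, and CCND2 read −0.83, −0.96, −0.56 and −1.22 in normal dogs. It was −1.31, −0.36, −0.38 and 0.40 in affected and −0.37 and 1.38 in escaper dogs. Both escapers lay above all normal dogs, and affected 1 was the lowest of the 10 while escaper 2 was the highest. With median centring in place of loess, escapers and normal dogs overlapped for CCND2. The escaper difference was 1.40 ± 0.51 (adjusted p = 0.22). It was 0.52 without escaper 2 and 2.27 without escaper 1, each resting on a single escaper. CCND1 was −0.28, −0.01, −0.08 and −0.41 in normal, −0.91, −0.19, −0.22 and −0.15 in affected and −0.16 and 0.43 in escaper dogs, with overlap in the comparisons against normal dogs. CCND3 differed by −0.07 in affected and 0.02 in escaper dogs, and the escaper sign changed with the scaling. CCNE2, an E cyclin of the G1 to S step, was −0.91, −0.41, −0.93 and −1.23 in normal and 0.28, −0.58, 0.11 and −0.74 in affected dogs, a difference of 0.64 ± 0.26 with overlap (adjusted p = 0.38). It was above background on 3 of 8 normal arrays and on all 8 affected arrays.

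CCNDBP1, a protein that binds D cyclins and E2F partners, showed the largest escaper difference among the members. It read 0.75, 0.87, 0.67 and 1.15 in normal, −0.29, −0.31, 0.65 and −0.05 in affected and 0.14 and −2.33 in escaper dogs. All 6 dystrophic dogs lay below the normal dogs, affected dogs overlapping under median centring, with affected 3 near normal 3 and escaper 2 far below the rest. The differences from normal dogs were −0.86 ± 0.45 in affected and −1.95 ± 0.55 in escaper dogs (adjusted p = 0.47 and 0.19). Without escaper 2 the escaper difference was −0.72, and without escaper 1 it was −3.19, each resting on a single escaper. The mitotic cyclin CCNB2 was above background on 2 dog channels and 9 reference channels, and CCNA2, the cyclin of S phase and G2, on 2 and 14.

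The mitotic kinase CDK1, listed under its older name CDC2, has 2 probes and was not above background on any normal array. Its brighter probe was above background on 3 affected, 2 escaper and all 20 reference channels. Log2 ratios were −0.81, −0.61, −0.88 and −1.30 in normal, −1.19, −0.80, −0.96 and −0.10 in affected and −0.92 and 0.38 in escaper dogs. Escaper 2 was the one dog above the reference, and affected 4 came next. The escaper difference from normal dogs was 0.63 ± 0.39 (adjusted p = 0.4) and −0.02 without escaper 2. The affected difference was 0.14 ± 0.32 (adjusted p = 0.88) and 0.28 without affected 1. The second probe gave 0.45 and 0.02.

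CDK4, the partner of D cyclins, was −0.04, −0.28, −0.32 and −0.58 in normal, 0.14, −0.30, −0.10 and 0.06 in affected and −0.35 and 0.25 in escaper dogs, and differed by 0.26 ± 0.18 in affected dogs (adjusted p = 0.58). CDK2AP1, a partner of CDK2, was 0.67, 0.73, 0.72 and 0.55 in normal and −0.83, −0.11, 0.32 and 0.63 in affected dogs. Affected 1 was lowest, affected 4 overlapped the normal range, and the difference was −0.67 ± 0.27 (adjusted p = 0.37), or −0.39 without affected 1. CDK5RAP3 lay higher in both escapers, at −0.29 and 0.0036 against −0.68, −1.16, −0.76 and −0.34 in normal dogs, a difference of 0.59 ± 0.35 (adjusted p = 0.38). With median centring CDK5RAP3 was 0.36 higher in escapers and overlapped the normal dogs. Affected dogs were higher than normal dogs by 0.58 with overlap, or 0.33 without affected 1. Escapers differed from affected dogs by 0.01, so the rise was not particular to escapers.

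Inhibitors of these kinases went different ways. CDKN3, a phosphatase that turns off CDK2 and CDK1, read −0.29, −0.17, −0.72 and −0.51 in normal, −0.03, 0.18, −0.19 and 0.25 in affected and 0.0038 and 0.13 in escaper dogs. Escapers lay above the normal dogs by 0.49 ± 0.19 and affected dogs by 0.48 ± 0.16, the latter with affected 3 inside the normal range (adjusted p = 0.24 and 0.3). Its size depended on the scaling, with CDKN3 at 1.62 in escaper and 1.98 in affected dogs in the deposited table. It was above background on 1 normal, 4 affected and 2 escaper channels, so the normal values are near the limit of detection. No normal dog passed the filter for CDKN3, so it entered the test through dystrophic dogs alone, which favours higher values there. CDKN2D, an inhibitor of CDK4 and CDK6, was 0.35, 0.17, 0.37 and 0.23 in normal, −1.37, −0.43, 0.23 and 0.19 in affected and 0.07 and 0.14 in escaper dogs. Affected 1 and affected 2 were low, and the affected difference was −0.63 ± 0.31 (adjusted p = 0.45) and −0.28 without affected 1. The escapers were lower than every normal dog, with a difference of −0.18 ± 0.38, within the SE, or −0.47 with median centring. CDKN2C differed by −0.16 in affected and 0.27 in escaper dogs with overlap in both, and by −0.01 without affected 1 and 0.07 without escaper 2. CDKN1B was above background on 7 dog channels and was not tested.

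The mean of the SMC genes separated dystrophic from normal dogs. SMC proteins, long coiled ATPases, form cohesin (SMC1A, SMC3), condensin (SMC4) and the repair complex of SMC5 and SMC6. The mean over the 5 tested genes was −0.66, −0.57, −0.75 and −0.55 in normal dogs. It was 0.11, −0.19, −0.24 and −0.38 in affected dogs, and −0.42 and −0.12 in escapers. All 6 dystrophic dogs lay above all 4 normal dogs, with no test made of the mean. Under median centring the escapers, at −0.81 and −0.51, overlapped the normal dogs at −1.10 to −0.61.

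SMC6 and SMC4 had the largest differences of the 5. SMC6 read −0.39, −0.54, −0.53 and −0.40 in normal, 0.58, 0.17, −0.03 and 0.16 in affected and −0.02 and 0.50 in escaper dogs. The groups of dystrophic dogs each lay above the normal dogs, by 0.69 ± 0.17 in affected (adjusted p = 0.23) and 0.70 ± 0.20 in escaper dogs (adjusted p = 0.19). Leaving out single dogs gave 0.57 to 0.77 and 0.44 to 0.96. The escaper difference of 0.96 was that without escaper 1, which rests on a single escaper. With median centring SMC6 was 0.45 higher in escapers and overlapped the normal dogs. SMC4 read −1.79, −1.28, −1.55 and −1.68 in normal, −1.58, −0.48, −0.40 and −0.49 in affected and −0.90 and −0.60 in escaper dogs. Affected 1 sat within the normal range and the other 3 affected dogs well above it. The affected difference was 0.84 ± 0.26 (adjusted p = 0.28), and without affected 1 it was 1.12 and passed (adjusted p = 0.045). Escapers were higher by 0.83 ± 0.32 (adjusted p = 0.23). SMC1A, SMC3 and SMC5 differed by 0.22, 0.26 and 0.31 in affected dogs, in each case with affected 1 highest and overlap between groups. Without affected 1 they differed by 0.01, 0.04 and 0.08.

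Of the condensin subunits outside the SMC family, NCAPD3 and NCAPH2, both of condensin II, were lower in escapers than in any normal dog, with differences of −0.12 ± 0.13 and −0.14 ± 0.15, each within the SE (adjusted p = 0.64 and 0.64). With processed signals NCAPD3 and NCAPH2 gave −0.37 and −0.48. NCAPD3 in escapers also lay below all affected dogs, with a difference of −0.20 ± 0.13 (adjusted p = 0.8), a separation that held under loess and 1 of the 4 other scalings. NCAPH, of condensin I, read 0.0039, 0.06, −0.01 and 0.18 in normal, −0.73, −0.17, −0.18 and 0.01 in affected and −0.35 and 0.67 in escaper dogs, with affected 1 lowest and escaper 2 highest. NCAPG2 was not above background on any normal array, and differed by 0.05 in affected and 0.20 in escaper dogs, the latter −0.20 without escaper 2.

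CENPP and CENPV, both named for the centromere, were above the normal dogs in all 4 affected dogs. CENPP, of the complex that sits at the centromere throughout the cycle, read −0.38, −0.44, −0.47 and −0.76 in normal, −0.13, 0.03, 0.41 and 0.67 in affected and −0.35 and 1.78 in escaper dogs. Escaper 2 was highest by far, and the differences from normal dogs were 0.76 ± 0.39 in affected and 1.23 ± 0.48 in escaper dogs (adjusted p = 0.46 and 0.23). Without escaper 2 the escaper difference was 0.16, and without escaper 1 it was 2.30, each resting on a single escaper. With median centring CENPP overlapped between escapers and normal dogs, and the deposited table gave 1.36 in affected and 1.90 in escaper dogs. CENPV read −1.52, −1.62, −1.50 and −1.55 in normal, 1.38, −0.73, −1.16 and −1.03 in affected and −1.28 and −1.99 in escaper dogs. The affected difference of 1.16 ± 0.49 (adjusted p = 0.38) was 0.57 without affected 1. Both escapers lay below all affected dogs for CENPV, with a difference of −1.25 ± 0.60 (adjusted p = 0.8), −0.66 without affected 1. CENPC1, a protein bound to centromeric chromatin, differed by 0.0022 in affected and −0.09 in escaper dogs.

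Mitotic kinases and motors were mostly at the limit of detection. AURKA was above background on 3 affected, 2 escaper and no normal channel, and differed from normal dogs by 0.25 in affected and 0.33 in escaper dogs (adjusted p = 0.61 and 0.47). Without affected 1 and without escaper 2 those were 0.12 and 0.06. AURKB was above background on 3 affected, 3 escaper and 16 reference channels, and PLK1 on 1 dog and 9 reference channels. KIF23, a motor of the final cut between daughter cells, lay below the reference in every dog, at −1.09, −0.84, −1.35 and −1.41 in normal, −1.01, −0.85, −1.80 and −0.98 in affected and −1.40 and −0.48 in escaper dogs. BIRC5, which encodes survivin, was above background on all 20 dog channels with one probe and on none with the other, and differed by −0.04 and −0.27 on the first. KIF11, KIF14, KIF15, KIF18A and KIF4A were above background on at most 1 dog channel a probe.

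Of the kinesins that were measured well, KIF2A, which takes microtubules apart, was above the normal dogs in all affected dogs. It read −0.73, −0.65, −0.63 and −1.27 in normal, 0.25, −0.55, −0.50 and 0.22 in affected and −0.67 and 0.39 in escaper dogs, a difference of 0.67 ± 0.29 (adjusted p = 0.39), or 1.06 in the deposited table. With median centring KIF2A overlapped between the groups. Affected 1, affected 4 and escaper 2 were the dogs above the reference. KIF22, a motor that moves chromosome arms, was low in affected 1 at −2.66, against 0.18 to 0.67 in the other affected and 1.23, 0.55, 0.75 and 0.69 in normal dogs. Its escapers, at 0.50 and −0.39, were below the normal dogs, with a difference of −0.75 ± 0.80, within the SE, and −0.31 without escaper 2. KIF1C, a cargo motor, was lower on 2 probes in affected dogs, with differences of −0.46 ± 0.31 and −0.67 ± 0.20 (adjusted p = 0.56 and 0.27), and in escapers, with −0.86 ± 0.37 and −0.98 ± 0.25 (adjusted p = 0.26 and 0.19). Without escaper 2 the first of the KIF1C escaper values was −0.39. KIF3C differed by 0.16 ± 0.14 between escapers and affected dogs, and 3 of the 4 other scalings turned its sign.

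CDC16 and CDC26 are subunits of the anaphase promoting complex, which marks mitotic proteins for destruction. CDC16 was lower in escapers than in affected dogs, at −0.30 and −0.49 against 0.37, −0.19, −0.10 and −0.08, a difference of −0.40 ± 0.23 (adjusted p = 0.8). CDC26 differed by 0.12 in affected and 0.11 in escaper dogs. The phosphatase CDC14A lay higher in escapers than in normal dogs by 0.07 ± 0.16, within the SE, and its sign changed under 3 of the 4 other scalings. The 8 tested genes with other CDC names, CDC42 and its partners among them, had a median difference of 0.08 in affected and −0.16 in escaper dogs, and none had dogs that did not overlap. CDC34, an enzyme of ubiquitin transfer, was saturated on 18 arrays, which can compress its ratios.

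The mean log2 ratio of all tested named genes was below 0 in every normal dog, between −0.14 and −0.09. Members in normal dogs were likewise set against the reference. Of the 68 tested, 31 were below it in all 4 normal dogs and 12 above it, 45.6% and 17.6%, where 38.3% and 23.2% of all named genes were. Among the 19 S phase and mitosis genes, 11 were below and 2 above. Of the 68, 6 were above background on no normal array and passed the filter through dystrophic dogs alone. MCM4, MCM6, CDC2, AURKA and KIF23, which are among the 19, belong to these. Their low values in normal dogs are in part fixed by that choice. The lowest were SMC4, at −1.79 to −1.28, CENPV, at −1.62 to −1.50, KIF23, at −1.41 to −0.84, and CDC2, at −1.30 to −0.61. The reference is RNA of a single normal individual, so its own spread is unknown.

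Cell type markers also set these dogs apart. The mean of 12 tested macrophage and myeloid markers, out of 20 listed, lay between −1.67 and −1.33 in normal dogs, between −1.16 and −0.04 in affected dogs, highest in affected 4, and was −1.15 and 1.25 in escapers 1 and 2. All 12 were higher in escapers than in normal dogs, and 8 lay wholly above, where 15% of all named genes did. Of 8 muscle fibre markers, 7 were lower in each dystrophic group, and the mean of the 8 was −1.54 in affected 1 and −1.70 in escaper 2. It was 0.20 in affected 3 and 0.29 in affected 4, against 0.57 to 0.61 in normal dogs. Affected 2, at 0.89, and escaper 1, at 0.81, lay above every normal dog. The mean of 13 fibroblast and matrix markers was 1.99 in escaper 2 and −1.20 in affected 1, so these 2 dogs, alike for MCM4 to MCM7, were opposite there. For 5 satellite cell and myoblast markers the mean lay between −0.62 and −0.33 in normal, −0.44 and −0.27 in affected and −0.27 and −0.14 in escaper dogs. The part of these cells in the values of the members was not tested. Of 12 T and NK cell markers 6 have a probe and 1 was tested.

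**Figure D5:**
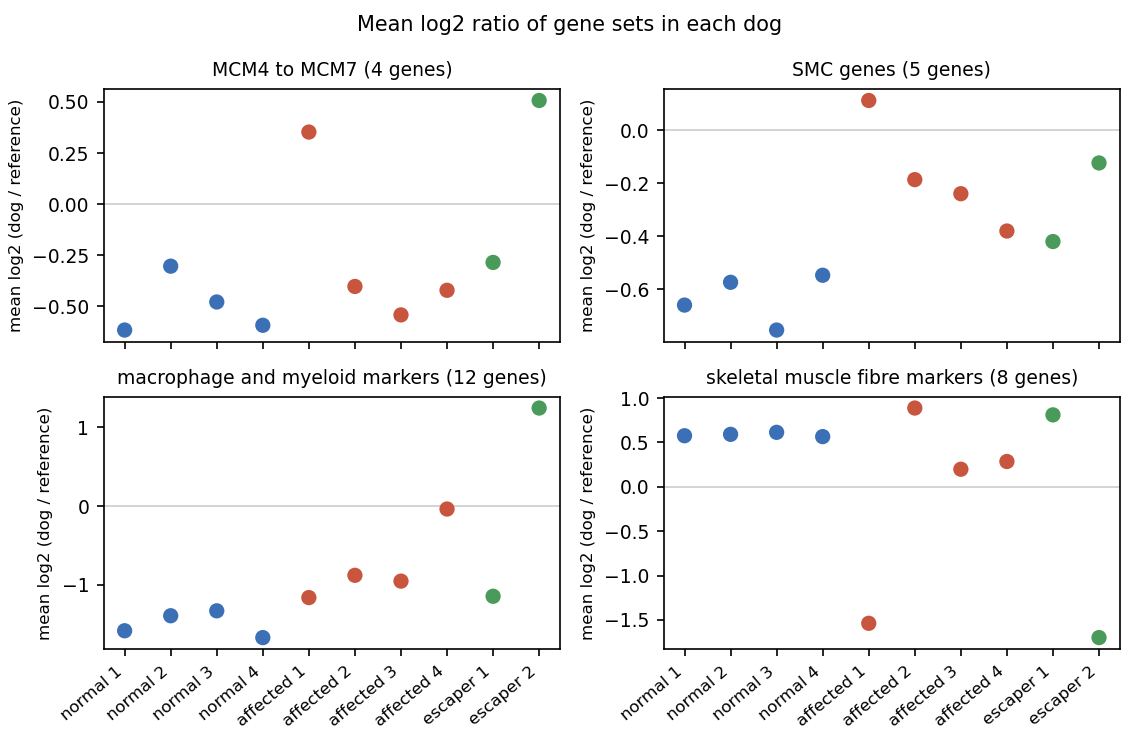
Mean log2 ratio of dog over reference (y axis) in each dog (x axis) for MCM4 to MCM7, the 5 SMC genes, 12 macrophage and myeloid markers and 8 muscle fibre markers; blue is normal, red affected and green escaper. Affected 1 and escaper 2 are the highest for MCM4 to MCM7, at 0.35 and 0.51, of which MCM4 and MCM6 passed the filter only through dystrophic dogs, and the lowest for fibre markers, at −1.54 and −1.70.

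Other genes of the same pathway are not covered by the name rule. Of 111 such genes, 71 have a probe and 50 were tested. None was called in limma at an adjusted p under 0.05. At an unadjusted p under 0.05, 2 were higher and 2 lower in affected than in normal dogs, where 6.05% and 6.82% of all named genes were. In escapers 3 were higher and 3 lower than in normal dogs, where 10.1% and 8.96% were, and 1 and 1 against affected dogs, where 3.06% and 2.48% were. Dogs did not overlap with normal dogs for 4 higher and 2 lower genes in affected dogs, where 6.19% and 7% of all named genes did so. In escapers they did not for 9 and 7, where 15% and 15.7% did so, and against affected dogs for 1 and 4, where 3.17% and 4.7% did so. The smallest p-values between affected and normal dogs were those of HMGB2 and STMN1. Between escaper and normal dogs STMN1 came first, then ANAPC11, RAD17 and HMGB2. STMN1, which takes microtubules apart, read −2.51, −1.79, −2.03 and −2.39 in normal, −0.55, −1.16, −1.41 and −0.40 in affected and −1.43 and 0.80 in escaper dogs. All 6 dystrophic dogs lay above the normal dogs, by 1.30 ± 0.44 in affected and 1.87 ± 0.53 in escaper dogs (adjusted p = 0.31 and 0.19). STMN1 differed by 0.76 in escapers without escaper 2. HMGB2, a chromatin protein, read −2.07, −1.17, −1.57 and −1.53 in normal, 1.30, −0.61, −0.29 and −0.67 in affected and −0.50 and 0.11 in escaper dogs. It too separated all dystrophic from all normal dogs, by 1.52 ± 0.42 and 1.38 ± 0.51 (adjusted p = 0.25 and 0.22). Named after their values were seen, the stress gene GADD45B and the growth regulator MYC differed more from normal dogs in escapers, by 2.19 ± 1.15 and 1.93 ± 0.99 (adjusted p = 0.33 and 0.32), but escaper 1 did not share this: without escaper 2 the differences were 0.10 and −0.30.

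Among the lowest p-values were also ANAPC11, the ring finger subunit of the anaphase promoting complex, and RAD17, which loads the HUS1 clamp, both lower in dystrophic dogs. ANAPC11 differed by −0.52 ± 0.20 in affected and −0.72 ± 0.24 in escaper dogs (adjusted p = 0.36 and 0.21). RAD17 read 0.47, 0.56, 0.75 and 0.45 in normal, −0.06, 0.02, 0.27 and 0.39 in affected and 0.26 and −0.40 in escaper dogs, and all 6 dystrophic dogs were lower. Its differences were −0.40 ± 0.18 and −0.63 ± 0.22 (adjusted p = 0.4 and 0.21). Both were nearer to 0 without escaper 2, at −0.30 for ANAPC11 and −0.30 for RAD17 in escapers. Between escapers and affected dogs the smallest p-values were those of MYBL2, a transcription factor of S phase, at 0.46 ± 0.16, of the cohesin subunit RAD21, at −0.53 ± 0.19, and of PTTG1, the securin that guards cohesin, at 1.02 ± 0.56 (adjusted p = 0.8 for each). PTTG1 was 1.07 in escaper 2 and 0.06 in affected 4, the dogs above the reference for it. Without escaper 2 the PTTG1 difference was 0.03, and that of MYBL2 was 0.25.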

How the data were processed

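RNA of 10 dogs was measured on 20 Agilent canine arrays, each dog in both dye orientations against 1 reference RNA. Per the file headers, the authors scanned the arrays with Feature Extraction 9.5.3.1, which deposited spot and background intensity in both channels, processed intensity and flags. The deposited log2 value table equals the processed dog over reference ratio of each array, with no centring, and served as an alternative. The genome build of the probe positions is not given in the sources used here.

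Spot means and background medians were corrected by normexp (offset 50) and normalised by loess within arrays in limma 3.58.1 (R 4.3.3), with control spots at weight 0. Control and outlier-flagged spots were left out. Ratios were turned to dog over reference and averaged per dog. Tested probes had a value in every dog and a dog signal flagged as well above background on each of the 2 arrays, in 2 dogs or more. Ratios of the 16008 probes that passed were fitted with lmFit and eBayes over all 3 groups, with Benjamini-Hochberg adjustment and a threshold of 0.05. A gene is represented by its brightest probe. The fit was tested on simulated data. The labels do not say whether other steps were shared by dogs, and the number of arrays limits the precision.

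Genes named are those whose dogs do not overlap between groups, the members with known roles in each family, and, of the other pathway genes, the 3 with the smallest p in each comparison. Members and lists were chosen with earlier results of these data known. Gene names are those of the array, and 130 member probes matched a RefSeq gene table by symbol. Other scalings, filters, variance models, single dyes, slide as a block and leaving out each dog were tried. Promoter sequences were not used here.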

Additional observations from a re-analysis of the deposited data

Results flagged for a closer look

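In each group of 4 dogs, the most extreme dog was set against the others by its gap to the nearest dog over the range of the group. Of 90 groups examined, over 40 genes and the set means, 13 exceeded Dixon's critical value. Chance alone exceeds it in about 5% of independent groups. These groups share dogs, many of the genes were named by their values, and set means hold some of the same genes. That rate is therefore no yardstick for the 13, and the rule was not run over all named genes. No cause was tested for any of them.

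Affected 1 was the extreme dog in 8 of the 13. Among all 10 dogs, it gave the highest or the lowest value for 49.3% of all tested named genes. It was low for CCND1, at −0.91 against −0.22 to −0.15 in the other affected dogs. It was also low for KIF22, at −2.66 against 0.18 to 0.67, for POLE4, at −0.92 against −0.03 to 0.05, and for SMC4, at −1.58 against −0.49 to −0.40. It was high for CENPV, at 1.38 against −1.16 to −0.73, for MCM7, at 0.49 against −0.23 to −0.19, and for RFC5, at 0.55 against −0.04 to 0.04. The mean of MCM4 to MCM7 in this dog was 0.35, against −0.54 to −0.40 in the other affected dogs.

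Other dogs gave the rest. KIF23 was −1.799 in affected 3 against −1.01 to −0.85, and POLA2 was 0.18 in affected 2 against −0.16 to −0.11. The mean of the 19 S phase and mitosis genes was −0.18 in affected 4, against −0.30 to −0.28. Without the probe described as cyclin L1 it was −0.17 against −0.30 to −0.27, a smaller gap over a wider range. The flag on this mean thus rests in part on that probe. KIF2A was −1.27 in normal 4, against −0.73 to −0.63 in the other normal dogs, and KIF3C was 0.073 in normal 1 against 0.23 to 0.25.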

How the results depend on the processing

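The main limits are the 2 escapers, which shared a slide, and the many dim probes. Most results kept their direction and their side of the threshold. Leaving out 1 dog gave 0 to 2 members called between affected and normal dogs, 0 to 11 between escaper and normal and 0 to 5 between escaper and affected. At an unadjusted p under 0.05 the ranges were 4 to 12, 1 to 26 and 0 to 17 members, and the medians ran from 0.03 to 0.15, from −0.02 to 0.07 and from −0.13 to 0.0076. The highest counts came without escaper 1, which leaves escaper 2 alone and assumes that it varies like the other groups. There 11 members were called against normal dogs, 16.2% of those tested, where 26.4% of all named genes were, and 5 against affected dogs, 7.35% where 12.5% were. Without affected 1, SMC4 (higher) and RNASEH2C (lower) were called between affected and normal dogs.

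Between affected and normal dogs, 1 member, RNASEH2C, was called with no background correction, with processed signals, with the deposited table, with slide as a random block, with the 2 groups alone, and with the dog in Cy5. That is 1.47% of the members tested, or 1.52% with the dog in Cy5, where 0.0373% to 0.63% of all named genes were called. With slide as a block, 2 members, RNASEH2C and CCNDBP1, were called between escaper and normal dogs, 2.94% where 3.58% of all named genes were. The block had a negative consensus correlation, −0.27, and slides lay within groups. Under it the probes called between escaper and normal dogs rose from 0 to 522. The count at an unadjusted p under 0.05 between affected and normal dogs was 14 with no background correction and with processed signals, and 3 with the dog in Cy3. Between escaper and normal dogs it was 5 with the dog in Cy3. Between escaper and affected dogs it was 5 with median centring and with no filter, 8 with slide as a block, 4 with either dye alone, and 1 with the 2 groups alone, with trend and robust variance and with the mean of a gene's probes. Shares of all named genes at an unadjusted p were taken for the main fit alone. Median centring moved the median of the members to −0.12 between escaper and normal and −0.23 between escaper and affected dogs. Leaving out the probe named MCM2 but described as cyclin L1, chosen after seeing the data, changed no call.

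For the signs that turned, the cause was not tested. CCND1 in affected against normal dogs was 0.0094 without affected 1 (−0.24 to 0.0094 over dogs left out), and CCND3 was 0.038 with the dog in Cy3. CCND3 in escaper against normal dogs was −0.12 with median centring, −0.037 with processed signals, −0.073 with the dog in Cy5 and −0.11 without escaper 2 (−0.11 to 0.16 over dogs left out). Against affected dogs CCND3 was −0.034 with median centring and −0.041 without escaper 2 (−0.041 to 0.23). CDC14A in escaper against normal dogs was −0.13 with median centring, −0.048 with processed signals and −0.0038 with the deposited table. CENPV was 0.26 without escaper 2 (−0.44 to 0.26) and NCAPH2 was 0.011 with the dog in Cy3. In escaper against affected dogs CDKN3 was −0.082 with median centring, −0.067 with no background correction, −0.35 with processed signals, −0.36 with the deposited table and −0.059 with the dog in Cy5. CDKN3 was −0.014 without affected 1, −0.068 without affected 3 and −0.051 without escaper 2 (−0.068 to 0.077). KIF3C was −0.11 with no background correction, −0.22 with processed signals and −0.23 with the deposited table. No paired analysis was possible because the groups hold different dogs.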
